A study of Mus musculus with 3 samples.

Results

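The peaks described here are SOX2 chromatin immunoprecipitation (ChIP-seq) peaks around 4 genes of the SOX transcription factor family, Sox2, Sox9, Sox4 and Sox21, in antral gastric glands of mice with and without Sox2. Members were all peaks of the wild-type and knockout lists that overlapped fixed mm9 windows. These windows run over chr3:34400000-34750000 for Sox2, chr11:112400000-113000000 for Sox9 and a distal group of peaks to its right, chr13:28940000-29150000 for Sox4 and chr14:118530000-118740000 for Sox21. There were 12 members among the 7213 wild-type peaks and 2 members among the 887 knockout peaks, 14 in all. The windows were selected on the positions and scores of called peaks, so the members' counts and scores are a description and were not tested.

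Mice of a mixed C57BL/6 x 129 background carried loxP-flanked Sox2 alleles (Sox2 fl/fl) in both groups. The knockout also carried the tamoxifen-activated Cre recombinase of Rosa26CreER, which is active in many cell types, while the wild type had Rosa26WT. Both groups were given tamoxifen when 8 weeks old and examined 2 weeks afterwards, so the control had the drug as well. SOX2 was precipitated with 4 µg of the goat antibody AF2018 from glands fixed in 1% formaldehyde for 10 min, with 1 ChIP library per genotype and a wild-type input that was not analysed here. Whether animals were pooled is not given in the sources used here. Peak lists hold no expression values, so neither the loss of Sox2 RNA nor the cell types of the glands could be checked. Read depth is unknown, and both the number of peaks and their scores move with depth.

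SOX proteins bind DNA through a high-mobility-group (HMG) box that recognises short A/T-rich sites and bends the helix. SOX2 marks stem and progenitor cells of the stomach and is best known as a pluripotency factor that acts at its own gene together with OCT4. SOX9 is a progenitor factor of many epithelia, whose gene sits in a long stretch of non-coding DNA with distant enhancers. SOX4 is a progenitor factor that also acts in tumour growth, and SOX21 is a close relative of SOX2 that mostly represses transcription. In the mouse gene table of GRCm38.p6, Sox2 lies between the protein-coding genes Dnajc19 and Atp11b and overlaps the long non-coding RNA gene Sox2ot. In the same table Sox9 is followed by Slc39a11, a zinc transporter gene, Sox4 by Cdkal1, and Sox21 is preceded by Gpr180.

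Reference promoters are shown to give the sequence next to the start of the genes whose windows held peaks, with SOX motifs marked. RefSeq sequences of GRCm38.p6 were at hand for 3 of the 4 genes, and the 250 bases before the annotated start are printed 5′ to 3′ on the gene's strand. The motifs searched on both strands were ACAAT and ACAAAG, each the core of a SOX site, and the octamer ATGCAAAT bound by OCT factors. Capitals mark a match.
Sox2, GRCm38.p6 chr3:34649745-34649994, plus strand: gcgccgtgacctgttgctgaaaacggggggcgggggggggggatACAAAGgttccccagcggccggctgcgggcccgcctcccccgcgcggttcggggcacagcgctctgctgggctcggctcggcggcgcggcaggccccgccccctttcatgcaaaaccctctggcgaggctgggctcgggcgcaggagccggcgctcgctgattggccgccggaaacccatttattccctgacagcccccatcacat
Sox4, GRCm38.p6 chr13:28953700-28953949, minus strand: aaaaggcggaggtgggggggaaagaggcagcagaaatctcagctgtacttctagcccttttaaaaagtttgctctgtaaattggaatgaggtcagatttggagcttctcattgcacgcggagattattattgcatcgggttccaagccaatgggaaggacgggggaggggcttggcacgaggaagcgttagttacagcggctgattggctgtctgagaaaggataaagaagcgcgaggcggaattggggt
Sox21, GRCm38.p6 chr14:118237031-118237280, minus strand: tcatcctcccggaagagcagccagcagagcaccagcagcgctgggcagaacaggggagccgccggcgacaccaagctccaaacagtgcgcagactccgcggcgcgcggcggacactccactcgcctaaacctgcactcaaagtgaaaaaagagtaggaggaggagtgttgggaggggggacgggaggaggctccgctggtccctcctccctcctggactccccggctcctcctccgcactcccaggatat
The Sox2 stretch held 1 ACAAAG match, and its G and C content was 72.0%. The Sox4 and Sox21 stretches held no match, with 50.8% and 65.2% G and C. The median G and C content of all promoters was 52.4%. Among 32851 mouse promoters of this length, 27.7% held ACAAT, 16.5% ACAAAG and 1.60% the octamer. A match is a description of the letters and not a bound site. The peaks are on mm9 and these sequences on GRCm38.p6, so whether a peak covers a printed stretch was not determined.

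The wild type had peaks at all 4 loci, and the numbers, scores and spacing differed widely among them. The Sox9 window held 6 wild-type peaks, the Sox21 window 3, the Sox2 window 2 and the Sox4 window 1. Because the windows differ in size, the order by density was another: 14.3 peaks per Mb at Sox21, 10.0 at Sox9, 5.71 at Sox2 and 4.76 at Sox4. The knockout list had 1 peak in the Sox9 window, 1 in the Sox21 window and none in the windows of Sox2 and Sox4. With 1 library per genotype no replicate error is available for any of these numbers.

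**Figure D1:**
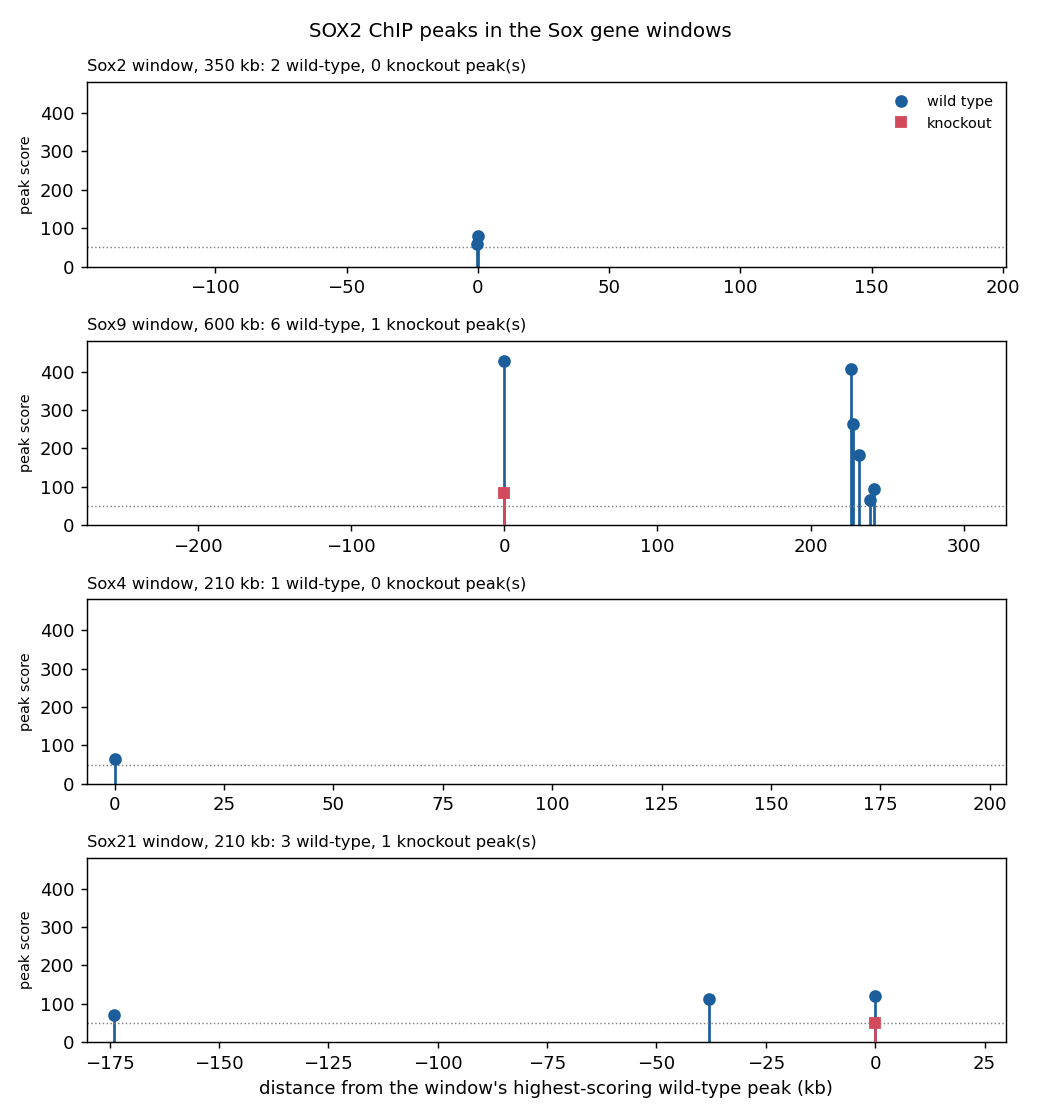
Score of each SOX2 ChIP peak (y axis, the authors' peak score) against its distance in kb from the highest-scoring wild-type peak of its window (x axis), for the 4 windows, each panel as wide as its window. Circles are wild-type peaks, squares knockout peaks, and the dotted line is drawn at a score of 50. The Sox9 panel has the tallest peaks, at 427.87 and 407.30, and the Sox2 and Sox4 peaks stay under 80.

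In the Sox2 window the wild-type list held a pair of weak peaks side by side. The first lay at chr3:34548388-34548669 with a score of 60.20, and the second at chr3:34548710-34549031 with a score of 78.59. They were 282 bp and 322 bp wide and only 40 bp apart. Of 7189 pairs of neighbouring wild-type peaks, 38 (0.529%) were as close or closer, and the median distance between neighbours was 94.2 kb. The pair ranked 5435 and 3846 of 7213 by score, so both peaks scored under the list's median of 82.62. No other wild-type peak was called in the 350 kb.

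No knockout peak lay in the Sox2 window. The nearest was at chr3:35032482-35032676 with a score of 63.69, which is 483 kb from the stronger Sox2 peak, and it overlapped a wild-type peak with a score of 101.79. The lowest score in the knockout list was 50.02, so weaker signal at Sox2 would not be listed. By design, Cre removes the loxP-flanked DNA of Sox2, and how far this had gone in the glands was not measured here. Whether the peaks lie in that stretch was not determined, and for a peak inside it loss of the DNA and loss of binding cannot be told apart.

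Sox9 had the strongest peaks of the 4 loci, as a solitary peak and a distal cluster. The solitary peak was at chr11:112672302-112672773, with a score of 427.87, rank 168 of 7213 (the top 2.33%) and a width of 472 bp. The knockout list had a peak inside it, at chr11:112672450-112672734, with a score of 82.79 and rank 219 of 887 (the top 24.7%). The knockout peak was 285 bp wide, all of it within the wild-type peak, and the midpoints were 54.5 bp apart. This site therefore stood high in both lists. The scores come from separate lists of unknown depth and give no measure of how much signal was lost.

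The distal cluster began 226 kb to the right of the solitary peak and held 5 wild-type peaks in 15.3 kb. Its strongest peak, at chr11:112898963-112899457, scored 407.30, rank 192 of 7213, close to the solitary peak in score. The second peak followed 498 bp on, at chr11:112899956-112900439, with a score of 264.22 and rank 502. The third, at chr11:112903907-112904579, scored 183.08 and was the widest member at 673 bp, rank 119 of 7213 by width. The last of the cluster were weaker, with 65.84 at chr11:112910974-112911219 and 94.96 at chr11:112913926-112914269. The scores thus fell from the left of the cluster to its right, apart from the last peak. Together the 5 peaks covered 2242 bp, or 14.6% of the cluster.

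None of the 5 cluster peaks overlapped a knockout peak, and the nearest knockout peak was the one at the solitary site, at a distance of 226 kb to 241 kb. In the whole wild-type list 91.8% of peaks were not overlapped, and 55.1% of the 10% with the highest scores. The cluster peaks at 407.30 and 264.22 were in that top 10%. The peak at 183.08 was in the next 10%, where 85.3% were not overlapped. For the weaker peaks, at 94.96 and 65.84, the share at their scores was 97.4% and 97.6%. A missing knockout peak was thus the more frequent outcome in each of these 10% groups taken as a whole. The top 10% runs from a score of 221.05 to 2097.47. Overlap was more frequent at higher scores, and the share near 407.30 itself was not determined. The solitary and the strongest cluster peak had like scores in the wild type, 427.87 and 407.30, yet only the former had a knockout peak. This is a difference between 2 sites in 1 pair of libraries and was not tested. Whole-list values show how common such a cluster was: 9 non-overlapping stretches held 5 wild-type peaks in no more than this span, the Sox9 cluster among them.

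**Figure D2:**
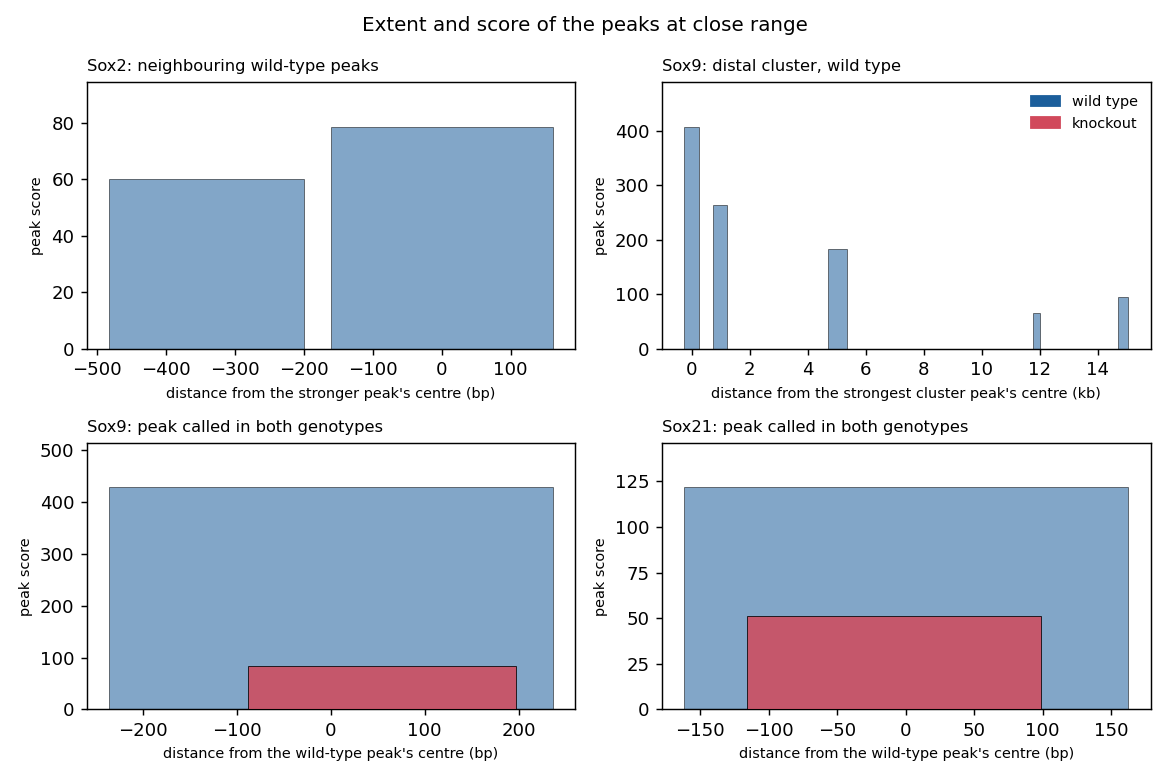
Extent and score of peaks at close range: each bar spans a peak from start to end (x axis, distance from the centre of the panel's strongest wild-type peak, in bp or, for the Sox9 cluster, kb), and its height is the score. Blue bars are wild type and red bars knockout. The Sox2 pair is separated by 40 bp, the Sox9 cluster extends over 15.3 kb, and both knockout peaks lie wholly inside the wild-type peak.

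Wild-type peaks went on beyond the right edge of the Sox9 window. The next 600 kb to the right held 10 wild-type peaks, more than the window itself, with scores from 50.56 to 237.51 and a median of 103.33. The first was 35.5 kb past the edge with a score of 79.69, and 4 of the 10 were within 100 kb. None of the 10 overlapped a knockout peak, as was the case for 91.8% of the whole list. To the left the list was empty, with no wild-type peak in the 600 kb before the window and the next 2136 kb away. The count at Sox9 therefore depends on where the right edge is set.

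The Sox4 window held a single weak wild-type peak, at chr13:28946160-28946509, with a score of 63.09, rank 5152 of 7213 and a width of 350 bp. It lay 6.16 kb from the left edge of the window, and the remaining 203 kb to the right had no peak. The nearest wild-type peaks outside were 2693 kb before the window with a score of 134.85 and 105 kb after it with 55.52. No knockout peak was called there, and the nearest, at chr13:31264341-31264877 with a score of 157.13, was 2318 kb from the Sox4 window's peak. The middle of the Sox4 window thus had no peak in either genotype.

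Sox21 had 3 wild-type peaks spread over 174400 bp. The first was at chr14:118535921-118536281 with a score of 71.98, the second at chr14:118672019-118672474 with 112.50 and the third at chr14:118709997-118710320 with 121.58. They ranked 4319, 2347 and 2091 of 7213. The gaps between them were 136 kb and 37.5 kb, so no Sox21 peak formed a cluster of the Sox9 kind. The first peak stood 5.92 kb from the left edge, and the nearest wild-type peak after the window was 103 kb away with a score of 65.81.

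The third Sox21 peak was also called in the knockout. The knockout peak, at chr14:118710043-118710256, had a score of 51.39 and was 214 bp wide, inside the wild-type peak, with midpoints 9 bp apart. Its score was 1.37 above the lowest of the knockout list, where 35 of 887 peaks scored less and it ranked 851. The second Sox21 peak, with a similar wild-type score of 112.50, had no knockout peak within 37.6 kb. The 2 sites had like wild-type scores, and the knockout score of the site called in both was close to the lower limit of its list.

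**Figure D3:**
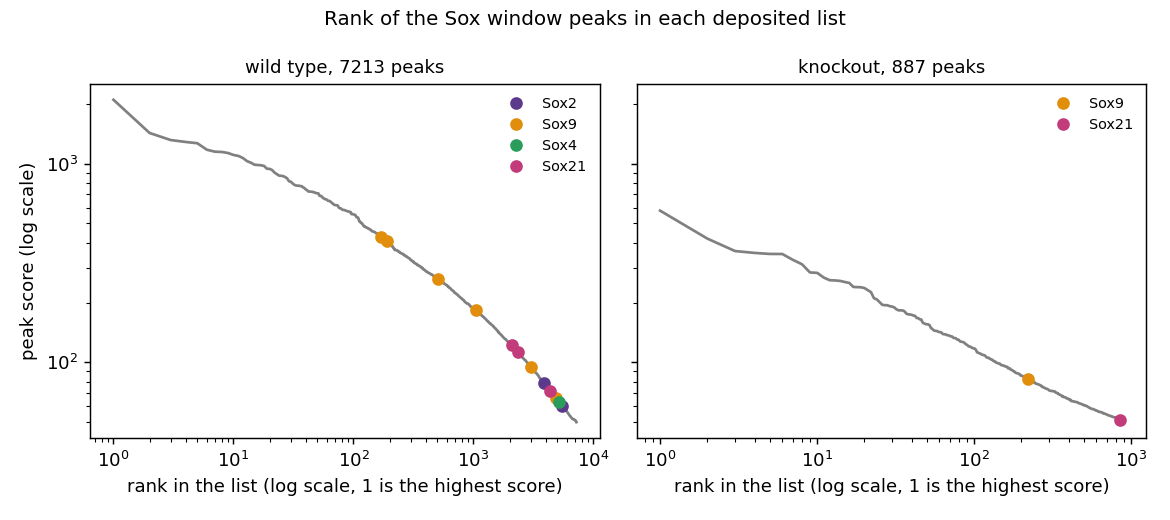
Score (y axis, log scale) against rank (x axis, log scale, 1 is the highest) for all peaks of the wild-type list (left) and the knockout list (right), as grey lines, with the members as coloured points. The Sox9 peaks are spread over the wild-type curve from rank 168 to rank 4862, the Sox2 peaks are at ranks 3846 and 5435 and the Sox4 peak at 5152. The Sox21 knockout peak is close to the end of the knockout curve at 51.39.

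Across the 4 loci, 2 of the 12 wild-type members (16.7%, exact Clopper-Pearson 95% interval 2.09 to 48.4) were overlapped by a knockout peak and 10 were not. In the whole wild-type list 91.8% of peaks were not overlapped, so the 10 are close to what the list shows in general. The interval reflects counting alone, because members of a list do not replicate each other. It also treats the members as independent, although the 2 Sox2 peaks lay 40 bp apart and 5 Sox9 peaks lay within 15.3 kb. In the whole list overlap was most frequent at high wild-type scores, so the list was divided by score into 10 bands of equal size, band 1 being the highest. In band 1, 44.9% of peaks (41.3 to 48.7) had a knockout peak, and of the 3 Sox9 members there the solitary peak had one. In band 3 the share was 7.91% (6.04 to 10.1), and it held the Sox21 peak with a knockout peak. Band 4, with the second Sox21 peak, had 3.60% (2.37 to 5.23). The Sox2 peaks were in bands 6 and 8, with 1.66% (0.863 to 2.89) and 1.53% (0.764 to 2.71), and the Sox4 peak was in band 8. A missing knockout peak at Sox2 and Sox4 was thus the usual outcome for wild-type peaks of their score.

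**Figure D4:**
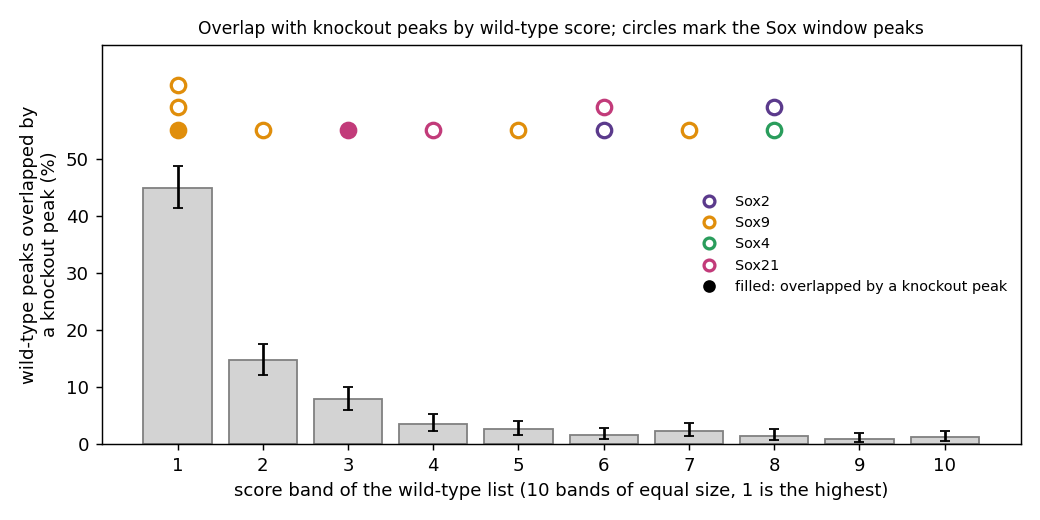
Percentage of wild-type peaks overlapped by a knockout peak (y axis) in each of 10 score bands of the wild-type list (x axis, 1 is the highest), with exact 95% intervals as error bars. Circles above the bars place the 12 wild-type members in their band and are filled where a knockout peak overlapped. The filled circles are the solitary Sox9 peak in band 1 and a Sox21 peak in band 3.

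Both knockout members lay inside a wild-type peak, as did the knockout peak in 486 of the 594 overlapping pairs of the series (81.8%, 78.5 to 84.8). Among all knockout peaks, 66.7% overlapped a wild-type peak. Among wild-type members, 6 of 12 had a score of at least 100, set beside 38.8% of the list, and these were 4 Sox9 peaks and 2 Sox21 peaks. The median width of the 12 members was 355.5 bp and that of the list 320 bp, with 10 of 12 members wider than the list median. The narrower members were the first Sox2 peak at 282 bp and a Sox9 cluster peak at 246 bp.

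To place the counts, each chromosome was cut into tiles of the window's size. Of 12475 tiles of 210 kb, 6.85% held at least 3 wild-type peaks, the number at Sox21, and 30.0% held at least 1, the number at Sox4. At Sox9, 7.46% of 4359 tiles of 600 kb held at least 6. At Sox2, 23.6% of 7480 tiles of 350 kb held at least 2. The mean number of wild-type peaks per tile was 0.574 at 210 kb, 0.955 at 350 kb and 1.64 at 600 kb. The Sox9 and Sox21 numbers were thus reached by under 10% of all tiles of their size, whereas the numbers at Sox2 and Sox4 were common. All tiles include those without any wild-type peak, and whether a peak could be called in each of them was not determined. Among tiles with at least 1 wild-type peak the shares were 14.1% for Sox9, 22.8% for Sox21 and 58.2% for Sox2. For Sox4 that share is 100% by construction. The windows were selected on called peaks and the tiles were not, so these shares are a description only.

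By top score the order of the loci was Sox9, Sox21, Sox2 and Sox4, at 427.87, 121.58, 78.59 and 63.09. A wild-type peak of at least the top Sox9 score was found in 3.60% of 600 kb tiles, and one of at least the top Sox21 score in 12.8% of 210 kb tiles. For Sox2 the share was 29.2% of 350 kb tiles and for Sox4 24.4% of 210 kb tiles. Tiles of different size do not give an order of these loci by score. At least 1 knockout peak was found in 15.4% of tiles of the Sox9 size, 9.61% of the Sox2 size and 6.05% of the size shared by Sox4 and Sox21. Of the tiles with at least as many wild-type peaks as the window, 49.5% had no knockout peak at the Sox9 number, 69.1% at the Sox21 number, 73.8% at the Sox2 number and 83.5% at the Sox4 number. A tile without a knockout peak was thus the usual case at the numbers of Sox2, Sox4 and Sox21, although the Sox21 window had 1 knockout peak.

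**Figure D5:**
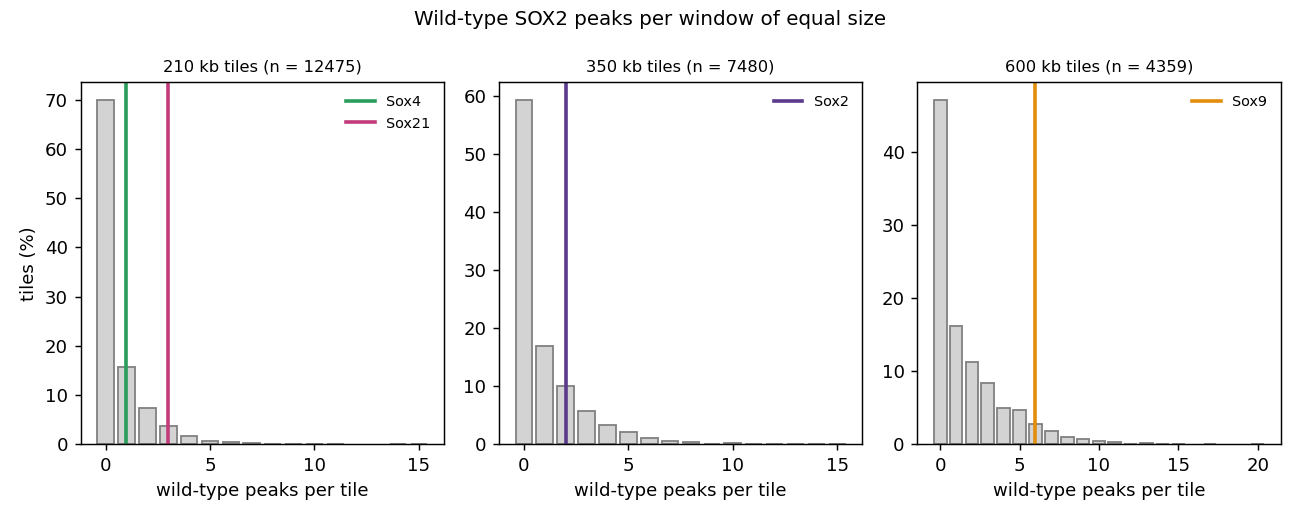
Percentage of tiles (y axis) by the number of wild-type SOX2 peaks they hold (x axis), for tiles of 210 kb, 350 kb and 600 kb. Coloured lines mark the number in the Sox window of that size. The lines at 6 for Sox9 and at 3 for Sox21 are in the right tail, and those at 2 for Sox2 and 1 for Sox4 are near the bulk of the tiles.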

How the data were processed

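SOX2 ChIP-seq was compared between 1 wild-type and 1 knockout library of mouse antral glands. The submitters' processing notes name Bowtie2, MACS and the build mm9. Versions, settings and the control library for calling were not stated there. Deposited tables give each peak's position and a score from the authors' peak caller, 1 list per library. The scale of the score is not named, so it only ranks peaks within a list. The lowest wild-type score was 50.00. Members and lists were chosen with earlier results of these data known. All 14 members are reported, by the rule of naming every peak where a window holds 10 or fewer.

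Overlap was at least 1 bp. Tiles were laid without gaps from the first base of 20 placed chromosomes to their last peak, in place of random windows. Ranks count from the highest score, and bands split the wild-type list into 10 by score. With 1 library per genotype the genotypes were not tested against each other. Overlap counting was tested on 3 simulated lists, in which all 300 planted overlaps and no others were found. Alternatives were the score limit, window edges, joining of close peaks, overlap rule and tiles. A genome or annotation of mm9 was not used here, so peaks were not tied to gene starts, peak sequences are not shown, and other SOX genes were not looked up. Positions are 1-based. Scripts ran in Python 3.11.15 with pandas 2.3.3, NumPy 2.4.6, matplotlib 3.10.9 and SciPy 1.17.1.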

Additional observations from a re-analysis of the deposited data

How the results depend on the processing

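Of 51 alternatives over 17 values, 29 kept it (a share or median inside its exact interval, a count changed by no more than 1.5 times) and 22 did not. Some of those kept could not have moved. A knockout count of 0 stays 0 with a score limit, the central 50% or joining, and joining cannot change a single peak. No paired analysis was possible because there is 1 library per genotype, and no replicate could be left out. With only scores of at least 100, wild-type peaks fell to 0 at Sox2 and 0 at Sox4, and knockout peaks to 0 at Sox9 and 0 at Sox21. Overlapped wild-type members went from 2 of 12 to 0 of 6. The limit was set on both lists, and the knockout members scored 82.79 and 51.39, so this last result holds by construction. The wild-type peaks that they overlapped, at 427.87 and 121.58, were themselves above the limit. With windows 100 kb longer on each side, Sox9 had 10 wild-type peaks. The central 50% of the windows held 1 wild-type peak at Sox9, 0 at Sox4 and 1 at Sox21, and 0 knockout peaks at Sox21. Joining peaks less than 5 kb apart left 1 at Sox2 and 3 at Sox9. The median wild-type score moved from 112.5 to 117.04 at Sox21 among scores of at least 100, and from 223.65 to 335.76 at Sox9, where the range of 6 peaks is a 95% interval for the median and the value counted as kept. The 3 Sox21 peaks give no such interval, so any change counted as moved. On autosomes alone, tiles with at least as many wild-type peaks made up 25.1% for Sox2, 31.7% for Sox4 and 7.32% for Sox21. Among tiles with a wild-type peak they made up 58.2% for Sox2, 14.1% for Sox9, 100% for Sox4, which holds by construction, and 22.8% for Sox21. With scores of at least 100 they made up 3.14% for Sox9 and 4.33% for Sox21. These settings change which peaks or tiles are counted. Reciprocal overlap of 50% and a distance of 1 kb each left 2 overlapped members. Sox2 and Sox4 have no median or tile share at scores of at least 100, since no peak was left. Unknown depth limits every comparison between genotypes.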
